A study of Mus musculus with 10 samples.

Results

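Jam2, Magi1 and Ptprm encode proteins of cell junctions, and the 25 regions described here are those of 1320 regions in the deposited lists that lie at these genes. The lists hold regions of H3K27ac, a histone mark of active promoters and enhancers, that the authors separated between YSM and MDM brain macrophages, with 892 regions listed for YSM and 428 for MDM. The 3 genes were chosen by the lists themselves, because they held many YSM regions. The number of regions at each gene and the list they came from are therefore a description and were not tested. A region was counted at a gene when its midpoint lay between the annotated start and end of that gene, or when no protein-coding gene had a closer end and that end lay within 100 kb. By this rule Ptprm had 11 regions, Magi1 had 9 and Jam2 had 5. All 25 were in the YSM list and 0 in the MDM list. By the same rule 2.16% of all 21887 protein-coding genes had at least 1 YSM region, 0.101% (22 genes) had 5 or more, and 1.06% had an MDM region.

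The cells were parenchymal macrophages sorted from the brains of Ms4a3Cre:R26-tdTomato mice, and the mark was profiled by CUT&Tag, in which an antibody guides a transposase to tag nearby DNA. All libraries, YSM and MDM alike, share this genotype and the treatment label DR-3x, whose meaning is not given in the sources used here, and neither is the age of the animals. By the series title MDM are macrophages derived from monocytes, while YSM is not spelled out. The library names give 4 YSM and 4 MDM libraries for H3K27ac, and 1 further library of each group, named for H3K27me3, was not analysed here. As background, Ms4a3 is active in granulocyte-monocyte progenitors, so the red reporter follows the descendants of cells that passed through that stage, and cells of other origins that never expressed Ms4a3 are not marked. How the reporter defined the YSM and MDM sorts is not stated.

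Cell junctions join a transmembrane layer to a scaffold inside the cell. Jam2 encodes JAM-B, an immunoglobulin-like adhesion molecule that binds JAM-C on a neighbouring cell and also an integrin, and that is best known from endothelial junctions. Magi1 encodes a membrane-associated guanylate kinase scaffold whose PDZ and WW domains gather junction proteins beneath the membrane. Ptprm encodes a receptor-type tyrosine phosphatase that binds itself on the opposite cell and acts on cadherin-catenin complexes. H3K27ac is deposited by the acetyltransferases p300 and CBP, and it marks regulatory DNA as active without stating which gene is served.

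The annotated 5′ end of Ptprm and the upper end of Magi1 each carried a listed region, and the DNA at these ends is shown because the mark covered it. RefSeq (GRCm38.p6, the assembly also called mm10) gives windows from 250 bases before to 50 bases after a transcription start. The window of Ptprm is chr17:67354410-67354709 on the minus strand, and 1 YSM region covered it. At the upper end of Magi1 the table holds the start of Gm31661, a long non-coding RNA on the opposite strand, in the window chr6:94283671-94283970 on the plus strand. This window contains the annotated end of Magi1 and was covered by 2 YSM regions. The table has no entry for Jam2. Among other junction genes, the start-site windows of Amotl1 (chr9:14614951-14615250, minus strand) and Nectin2 (chr7:19749524-19749823, minus strand) also met YSM regions, and they are shown for comparison. At Nectin2 2 regions covered the window, and at Amotl1 1 covered it and 1 overlapped it in part. Each sequence is written 5′ to 3′ on the strand of its own transcript, and capitals mark letters that match a searched motif.
Ptprm: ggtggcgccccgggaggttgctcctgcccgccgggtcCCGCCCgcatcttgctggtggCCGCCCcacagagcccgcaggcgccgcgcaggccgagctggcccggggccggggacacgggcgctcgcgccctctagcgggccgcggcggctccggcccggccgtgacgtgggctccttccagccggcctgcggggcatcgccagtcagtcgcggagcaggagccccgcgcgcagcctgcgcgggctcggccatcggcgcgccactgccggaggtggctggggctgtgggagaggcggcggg
Gm31661 at the upper end of Magi1: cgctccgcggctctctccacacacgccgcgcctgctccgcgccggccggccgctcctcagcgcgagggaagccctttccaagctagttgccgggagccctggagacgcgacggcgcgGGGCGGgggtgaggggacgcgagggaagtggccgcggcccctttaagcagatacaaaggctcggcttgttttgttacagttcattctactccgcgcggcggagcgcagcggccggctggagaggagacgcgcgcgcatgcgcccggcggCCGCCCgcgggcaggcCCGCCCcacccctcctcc
Amotl1: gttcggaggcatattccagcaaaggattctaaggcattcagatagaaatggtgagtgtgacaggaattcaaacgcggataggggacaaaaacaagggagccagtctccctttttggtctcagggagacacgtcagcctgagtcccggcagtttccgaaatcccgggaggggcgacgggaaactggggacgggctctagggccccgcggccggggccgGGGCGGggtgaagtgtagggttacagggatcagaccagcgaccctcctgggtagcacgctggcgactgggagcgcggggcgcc
Nectin2: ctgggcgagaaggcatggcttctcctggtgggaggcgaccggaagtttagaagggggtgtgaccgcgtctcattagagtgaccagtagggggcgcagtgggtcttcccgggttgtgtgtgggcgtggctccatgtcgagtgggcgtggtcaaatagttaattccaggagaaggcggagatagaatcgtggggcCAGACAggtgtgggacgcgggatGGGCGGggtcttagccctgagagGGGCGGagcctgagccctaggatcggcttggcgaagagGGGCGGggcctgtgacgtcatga

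The window of Ptprm was 80.7% G or C with 43 CpG dinucleotides, and that at the end of Magi1 was 73.3% G or C, also with 43. Over all 32851 windows of the table, the median was 52.7% G or C and 7 CpG dinucleotides. The G and C content at Ptprm was as high as or higher than that of 99.3% of windows, and at Magi1 than that of 94.9%. The 85 windows covered by a YSM region had a median of 57.7% and 14 CpG dinucleotides, and the 42 covered by an MDM region had 53.3% and 7. Both ends thus lay above the middle of either group. The Amotl1 and Nectin2 windows, at 61.3% and 62.7%, lay closer to it.

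Motifs were searched as plain letters on both strands. They were GAGGAA (the core bound by PU.1, the macrophage ETS factor, in 28.3% of all windows), TGANTCA (AP-1, 7.81%), TGTGGT (RUNX, 16.8%), TTGCNNAA (C/EBP, 10.8%) and the MEF2 motif (3.69%). The others were CAGACA (SMAD, 21.0%), CACGTG (E-box, 7.15%), GGGCGG (the GC box of SP and KLF factors, 35.7%), TATAAA (bound by TBP, 13.6%) and GGAATG (TEAD, 14.7%). The GC box was found 2 times in the window of Ptprm, 3 times at the end of Magi1, 1 time at Amotl1 and 3 times at Nectin2. The SMAD letters were found 1 time, at Nectin2, and no matches overlapped each other. The remaining motifs had no match in these 4 windows, which says only that those letters are not in them.

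Ptprm, on the minus strand of chromosome 17 from 66666848 to 67354491, is 688 kb long and had 11 YSM regions in 10 separate groups. Every region in the lists is 2001 bp wide, and regions that overlapped or touched were joined into a group. The first region, chr17:67353725-67355725, spanned the 5′ end, with its midpoint 0.234 kb outside the gene. The other 10 lay inside it and stepped away from the 5′ end. Near the start were chr17:67346275-67348275 (midpoint 7.22 kb from the end), chr17:67342115-67344115 (11.4 kb) and chr17:67328570-67330570 (24.9 kb). The overlapping pair chr17:67304046-67306046 and chr17:67303624-67305624 followed at 49.4 and 49.9 kb, and chr17:67259150-67261150 at 94.3 kb. The 4 deepest regions were over 100 kb from either end of the gene: chr17:67206322-67208322 (147 kb), chr17:67193040-67195040 (160 kb), chr17:67156130-67158130 (197 kb) and chr17:67132763-67134763 (221 kb). The remaining 467 kb towards the 3′ end of Ptprm held 0 listed regions.

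The steps between neighbouring midpoints in Ptprm ranged from 0.422 to 52.8 kb, with a median of 18.5 kb. The series ran over 223 kb, of which the regions covered 20.4 kb (9.16%). The 10 groups became 6 with the wider of 2 joining distances tried. Ptprm held 11 of the 26 YSM regions on chromosome 17 (42.3%), with its overlapping pair counted as 2. The gene makes up 1.76% of the summed length of protein-coding genes there. Because Ptprm was chosen for its many YSM regions, a high share follows from that choice, and the 2 shares were not compared by a test. Jam2 and Magi1 held smaller shares of the YSM regions on their own chromosomes. The nearest other YSM regions on either side lay 0.983 Mb (at Rab31) and 1.74 Mb (at Epb41l3) from the gene.

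Magi1, on the minus strand of chromosome 6 from 93675453 to 94283929, is 608 kb long and had 9 YSM regions in 7 groups. A pair of overlapping regions, chr6:94282795-94284795 and chr6:94283072-94285072, spanned the 5′ end, with midpoints 0.134 kb inside and 0.143 kb outside the gene. Further in lay chr6:94272972-94274972 (9.96 kb from the end), chr6:94268344-94270344 (14.6 kb) and chr6:94253124-94255124 (29.8 kb). A further overlapping pair, chr6:94221369-94223369 and chr6:94220961-94222961, lay at 61.6 and 62.0 kb. The deepest were chr6:94162345-94164345 (121 kb) and chr6:94158567-94160567 (124 kb). The steps between midpoints ranged from 0.277 to 58.6 kb with a median of 7.23 kb, and the regions covered 14.7 kb of a 127 kb stretch (11.6%).

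The other 484 kb of Magi1 held 0 listed regions. That stretch includes the start sites that the RefSeq table gives for shorter forms of Magi1, with windows at chr6:93912914-93913213 and chr6:93913641-93913940. The nearest YSM region lay 245 kb from each. The listed regions of Magi1 were thus at and downstream of the outermost start of the gene, and not at these internal starts. Absence from the lists does not mean that the mark is absent, because regions with similar H3K27ac in both groups would not be listed.

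Jam2, on chromosome 16 from 84774123 to 84826380, is 52.3 kb long and had 5 YSM regions in 3 groups, all with midpoints inside the gene. The tables used here give no strand for it. Overlapping regions chr16:84773216-84775216, chr16:84773527-84775527 and chr16:84773893-84775893 formed 1 group of 2.68 kb over the lower end, with midpoints 0.093, 0.404 and 0.770 kb into the gene. The other 2 were chr16:84782424-84784424, 9.30 kb from the lower end, and chr16:84801259-84803259, 28.1 kb from the lower and 24.1 kb from the upper end. Counted as groups, Jam2 had 1 at its lower end and 2 in its body. The regions of Jam2 covered 6.68 kb of a 30.0 kb stretch (22.2%), a larger share than at Magi1 or Ptprm. Because every region has the same width of 2001 bp, these shares give the density of listed regions and not the extent of the mark.

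**Figure D1:**
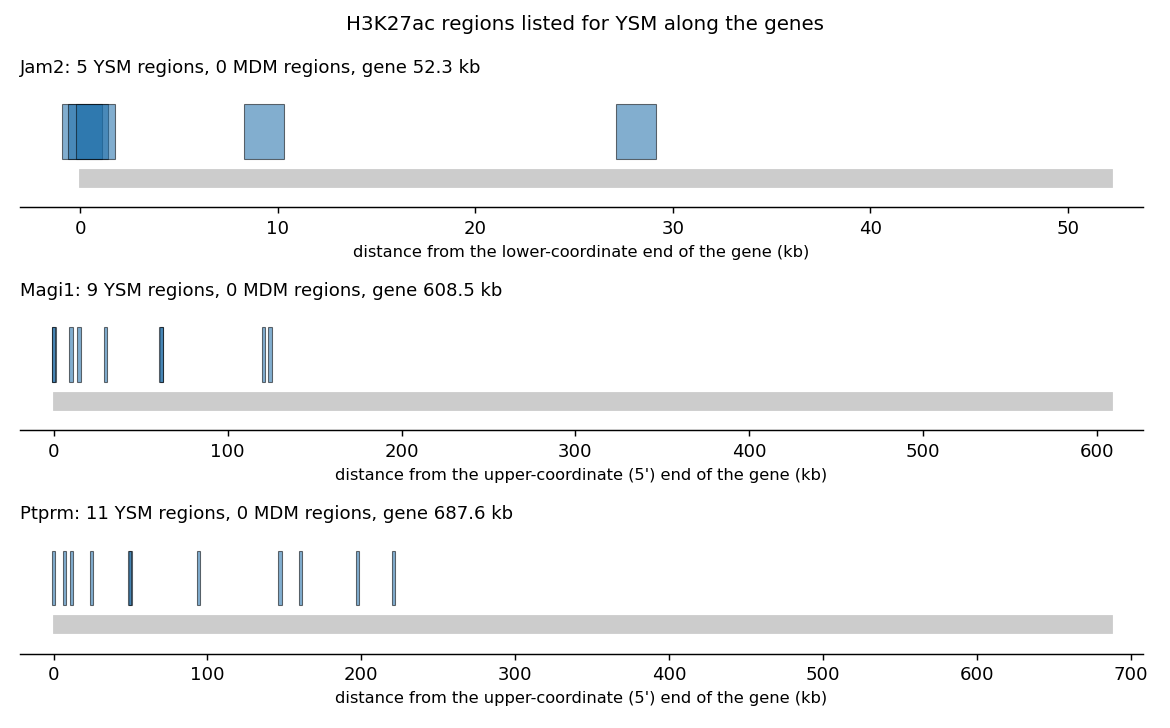
YSM regions (blue boxes, drawn to scale at 2001 bp, darker where they overlap) along Jam2, Magi1 and Ptprm (grey bars), with the distance in kb from the gene end that carries a region on each axis. Regions reach 28.1 kb into Jam2, 124 kb into Magi1 and 221 kb into Ptprm, and the rest of each gene holds 0 regions.

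The 3 genes share a region over 1 gene end and further regions inside the gene. Together, 6 of the 25 regions spanned a gene end, 16 lay more than 10 kb from any end of their gene and 6 more than 100 kb from it. Of the 25, 9 overlapped another region, so that 20 groups remained. The deposited score, a whole number of unstated meaning, was 1 for all 25 and ranks none of them. The distance limit of 100 kb decided no member, since every region was either inside its gene or within 0.234 kb of it. The closest YSM region left out was chr6:94535476-94537476, 253 kb beyond the upper end of Magi1.

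The MDM list held 10 regions on all of chromosome 16 and 14 on chromosome 17, so its regions are sparse there. The distances below are given with that in mind and are not read as a trait of Jam2 or Ptprm. For all 11 Ptprm regions the closest MDM region was chr17:70570043-70572043 at Dlgap1, 3.21 to 3.44 Mb away from edge to edge. For all 5 Jam2 regions it was chr16:81453804-81455804 at Ncam2, a neural adhesion molecule gene, 3.32 to 3.35 Mb away. Magi1 was closer: its 9 regions lay 319 to 443 kb from chr6:94603717-94605717. That MDM region covers the overlapping ends of Slc25a26, a mitochondrial carrier gene, and of Lrig1, which encodes a membrane inhibitor of growth factor receptors. Slc25a26 is the upper neighbour of Magi1, 216 kb away, and it held the YSM region at 94535476 as well as this MDM region. It is 1 of 5 genes with regions of both lists, which make up 0.0228% of protein-coding genes. Between Magi1 and Lrig1 the listed regions changed from YSM to MDM.

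The genes next to the 3 junction genes mostly had no region, as is the case for most genes. Of all protein-coding genes, 2.16% had a YSM region and 1.06% an MDM region. The lower and upper neighbours of Jam2, Mrpl39 and Atp5j, had 0 regions of either list, although Atp5j begins 1.49 kb from the upper end of Jam2. Themis3 and Lrrc30, on either side of Ptprm, had 0, and so did Adamts9, the lower neighbour of Magi1, 731 kb away. The nearest other YSM region to Jam2 lay 0.975 Mb beyond its upper end, at Adamts1. Jam2 and Ptprm thus each lay 0.975 Mb or more from any other listed region. The lists are sparse, with 40 YSM and 10 MDM regions on chromosome 16 and 26 and 14 on chromosome 17. The gaps around other genes were not measured, so these gaps are not read as a trait of the 2 genes.

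Long genes have more room for regions, so the counts are set here against genes of similar length. Among 227 genes of 500 kb and over, the length class of Magi1 and Ptprm, 15.4% had a YSM region, 8.81% an MDM region and 2.2% (5 genes) had 5 or more YSM regions. Among 3955 genes of 50 to 200 kb, the class of Jam2, the shares were 4.7% with a YSM region and 0.202% (8 genes) with 5 or more. Per 100 kb of gene, Jam2 had 9.57 YSM regions, Ptprm 1.60 and Magi1 1.48. In order of YSM regions, Ptprm shared the second place with Adamts16 behind Klf12 with 13, Magi1 was in the fourth place, and Jam2 was among 13 genes with 5. These ranks follow from the choice of the genes and support nothing further.

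**Figure D2:**
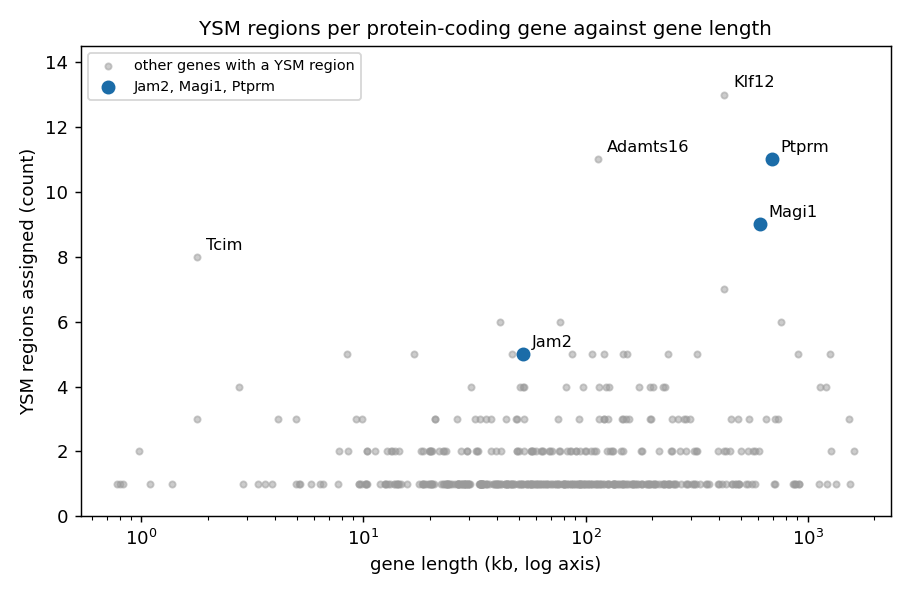
Number of YSM regions per protein-coding gene (vertical axis, count) against gene length (kb, log axis), for the 472 genes with at least 1 YSM region. Ptprm (11) and Magi1 (9) lie among the longest genes, Jam2 (5) is 52.3 kb long, and the other labelled genes are Klf12 (13), Adamts16 (11) and Tcim (8).

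The position of the regions along the gene was not part of the rule. It could be measured where the RefSeq table gives a strand, which holds for 17492 protein-coding genes. All 10 regions inside Ptprm lay between 1.05% and 32.1% of the gene length from its 5′ end, and all 8 inside Magi1 between 0.022% and 20.4%. Genes without a strand were left out, among them Dlgap2 (758 kb, 6 YSM regions inside), which is close to both genes in its counts. The other genes of 500 kb and over with a strand and YSM regions inside numbered 19. In them, 9 of 43 regions (20.9%) lay in the first 33.3% of the gene, against 18 of 18 in Magi1 and Ptprm. For MDM regions in genes of this length it was 6 of 25 (24.0%). With overlapping regions joined, the other genes gave 8 of 35 groups (22.9%), and with genes of 200 kb and over it was 44 of 136 regions (32.4%), a larger share. Regions of 1 gene share a locus, so these counts were not tested, and this limit was set after the positions had been seen.

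The genes of 200 kb and over with a strand and at least 3 YSM regions inside numbered 18. Dlgap2, Fbn2 and Zfpm2 met the limits of length and regions but had no strand and were left out. Of the 18 genes, 4 had all their regions in the first 33.3%: Magi1, Ptprm, Kcnma1 (a calcium-activated potassium channel gene) and Pld5. Klf12, a transcription factor gene, had most of its 12 inner regions near the 5′ end but reached 83.9% of its length. In Agbl4, Dock9, Etl4, Hs6st3, Opcml, Rapgef2, Rarb and Tanc1, all regions lay at or beyond 67.8% of the gene. The 5′ placement was therefore seen at some long YSM genes and not at others. Among 8 genes with MDM regions under the same limits, 1, Dach1, had all of them in the first 33.3%.

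**Figure D3:**
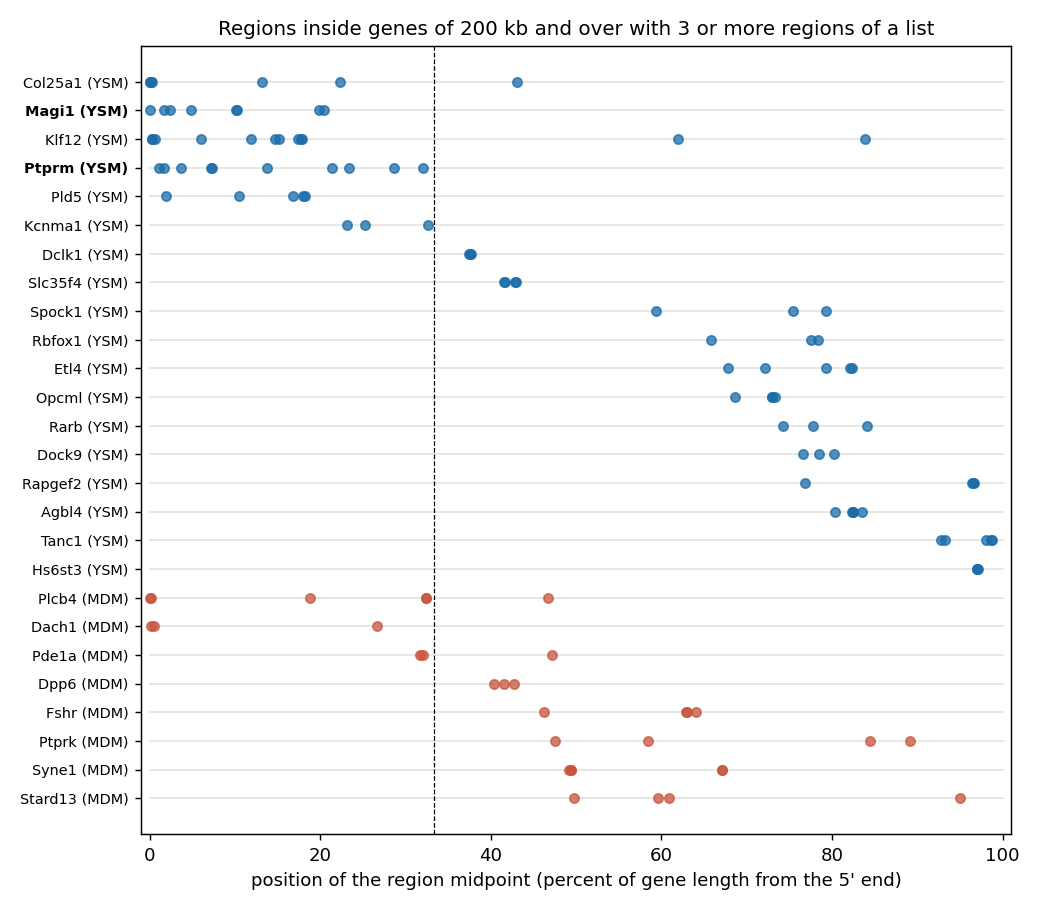
Position of each region midpoint as a percent of gene length from the 5′ end (blue, YSM; red, MDM), with a dashed line at 33.3%. Shown are genes of 200 kb and over with a strand and 3 or more regions of a list inside. The regions of Magi1 and Ptprm (bold names) all lie left of the line, at 20.4% or less and 32.1% or less, and those of Ptprk all lie right of it, from 47.5% to 89.2%.

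The wider junction machinery was covered by 8 lists with 124 distinct genes in the gene table. A YSM region was assigned to 9 of them (7.26%) and an MDM region to 4 (3.23%), with 0 genes in both. Without Jam2, Magi1 and Ptprm, 6 of 121 genes (4.96%) had YSM regions and 4 (3.31%) had MDM regions, beside 2.16% and 1.06% of all protein-coding genes. The junction genes are longer, with a median of 63.3 kb against 17.2 kb for all protein-coding genes. In the class of 50 to 200 kb, 4.7% of genes had a YSM region and 2.2% an MDM region. The single lists hold 7 to 29 genes each, so counts of 0 to 2 genes in them are not read further.

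Adhesion molecules of the JAM family had 2 of 10 genes with YSM regions and 0 with MDM regions. The 2 were Jam2, chosen for its YSM regions, and Igsf11, a homophilic adhesion molecule with 1 region 74.9 kb beyond its 3′ end (chr16:39101059-39103059). The median length of this list was 55.1 kb. Of genes of 50 to 200 kb, 4.7% had a YSM region and 2.2% an MDM region, and of all protein-coding genes 2.16% and 1.06%. Jam3, the partner of Jam2, had 0 regions of either list, and so did F11r, which encodes JAM-A. The 7 integrin genes of JAM receptors also had 0. Of 9 nectin genes 1 had YSM regions: Nectin2, an adhesion molecule of the nectin family, with an overlapping pair over its 5′ end (nearest midpoint 0.132 kb outside, chr7:19748705-19750705).

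The scaffold genes are long, with a median of 145 kb, and 4.7% of genes of 50 to 200 kb had a YSM region and 2.2% an MDM region. Of 29 in the table, 2 (6.90%) had YSM regions (Magi1, chosen for them, and Amotl1) and 2 (6.90%) had MDM regions (Pard3b and Dlg2). Amotl1 encodes an angiomotin-like protein of tight junctions that binds YAP, and its 3 regions lay 48.3 to 51.4 kb inside the gene, at chr9:14610553-14612553, chr9:14613193-14615193 and chr9:14613689-14615689. The last 2 overlapped each other. The window printed above was covered by the last and overlapped in part by the one before it. Pard3b, a polarity scaffold, had 1 MDM region at chr1:62243884-62245884, 397 kb from the nearer gene end. Dlg2, a synaptic guanylate kinase scaffold, had 1 at chr7:91715975-91717975, 732 kb from the nearer end. Both are far longer than Magi1, at 1004 and 1973 kb, so a single region in them is read with that length in mind. Magi2 and Magi3, the paralogs of Magi1, had 0 regions.

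Among 20 receptor-type tyrosine phosphatases, Ptprm had YSM regions and Ptprk had MDM regions, and the other 18 had none. Ptprk belongs to the same subfamily as Ptprm and likewise binds itself between cells. Its 4 MDM regions, each a group of its own, were chr10:28322165-28324165, chr10:28379434-28381434, chr10:28515228-28517228 and chr10:28539833-28541833. They lay 248, 306, 441 and 466 kb from the 5′ end of a gene of 523 kb, and 247 kb separated the nearest of them from the start-site window. The paralogs thus stood in opposite lists and in different parts of the gene: Ptprm regions began at the 5′ end, and Ptprk regions started near the middle. This is 1 gene of 20 (5%) per list. Of genes of 500 kb and over, 15.4% had a YSM region and 8.81% an MDM region. Ptprm was chosen for its YSM regions, and the contrast was not tested. Ptprt and Ptpru, of the same subfamily, had 0 regions. Ptprc, which encodes the leukocyte antigen CD45, also had 0.

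Tight junction membrane proteins had 1 gene of 21 with YSM regions, Marveld2, which encodes tricellulin, with 3 overlapping regions 4.65 to 5.40 kb from its 3′ end (nearest chr13:100599609-100601609). None of the claudin genes listed had a region. Of 17 cadherin and catenin genes, Cdh8 had 1 YSM region 28.3 kb beyond its 3′ end (chr8:98995134-98997134) and Ctnnd2, the delta-catenin gene, had 1 MDM region 296 kb inside (chr15:30468023-30470023). Of 11 connexin and pannexin genes, Panx1, a channel that releases ATP, had 1 YSM region 1.55 kb beyond its 3′ end (chr9:15003236-15005236). The tight junction and connexin lists had median lengths of 9.96 and 10.3 kb. Of genes under 50 kb, 1.09% had a YSM region and 0.508% an MDM region. The cadherin and catenin list had a median of 148 kb. Of genes of 50 to 200 kb, 4.7% had a YSM region and 2.2% an MDM region.

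**Figure D4:**
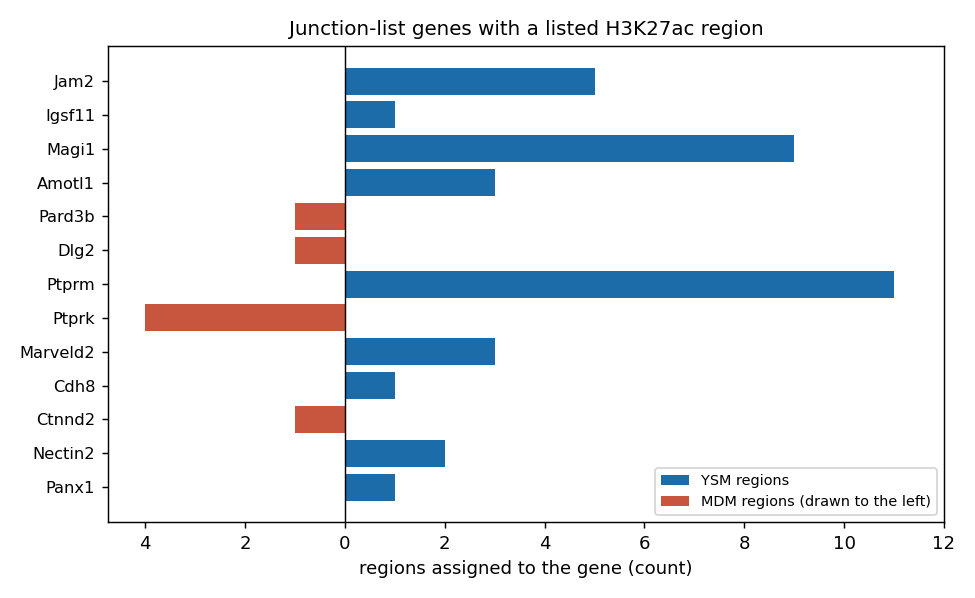
Number of regions assigned to each gene of the junction lists that had any (horizontal axis, count), YSM to the right in blue and MDM to the left in red. Ptprm (11), Magi1 (9) and Jam2 (5) have the most YSM regions, which is why they were chosen, and Ptprk (4) has the most MDM regions.

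By the number of YSM regions inside and outside the gene, MDM regions and groups, the genes most like each were sought among 103 others with at least 3 regions. For Jam2 these were Bend5 and Agbl4, with a summed difference of 0, and Gatb, with a difference of 1. Bend5 lies inside Agbl4 and both count the same 5 regions, so they are 1 locus. For Magi1 they were Klf12 (difference 4), Ptprm (5) and Dlgap2 (5). For Ptprm they were Magi1 (5), Klf12 (5) and Dlgap2 (10), so that the 2 long junction genes were among the closest to each other. This likeness is one of counts alone.

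Jam2, Magi1 and Ptprm are also active in other cells of the brain, endothelial cells among them, and the markers of such cells were counted in the same way. Of 14 endothelial markers, Emcn had 1 YSM region 77.0 kb outside the gene, Abcb1a had 3 MDM regions, and 12 had none, among them Cldn5, Pecam1 and Cdh5. Pericyte and smooth muscle markers had 0 of 8 genes with a region. Astrocyte markers had 1 of 8 (Slc1a3, with 6 YSM regions), oligodendrocyte lineage markers 2 of 10 (Mbp and Mog, 1 YSM region each) and neuronal markers 1 of 10 (Snap25, 2 YSM regions). Microglia markers had 1 of 14 (Sall1, with 5 YSM regions), border-associated macrophage markers 1 of 9 (Cd163, with 1 MDM region) and monocyte markers 0 of 10. Over all 83 distinct markers, 6 (7.23%) had YSM regions and 2 (2.41%) had MDM regions, beside 2.16% and 1.06% of all protein-coding genes. Each list holds 8 to 14 genes, so a count of 0 to 2 in it is not read further. The part of other cell types in the regions at Jam2, Magi1 and Ptprm was not tested. The lists hold differences alone, so markers shared by both groups cannot be checked in them. Each library is a bulk of many nuclei, and more cells with the mark cannot be told apart from more mark per cell.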

How the data were processed

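H3K27ac was profiled by CUT&Tag in sorted brain macrophages, with 4 YSM and 4 MDM libraries. The authors deposited 2 BED lists of regions, named for a DESeq2 comparison, with a whole-number score per region whose meaning is not stated. HOMER, Picard, Bowtie2 2.2.5 and Trimmomatic 0.39 were used with mm10, per the submitters' processing notes, where their roles are not stated. Threshold, direction and fold changes of that comparison are not stated. Regions in a list were taken to have more H3K27ac in the group that names it. Depth per library is unknown, so no error between libraries could be given, and whether libraries came from separate animals is not stated.

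Regions were assigned with Python 3.11.15 and pandas 2.3.3 to the RefSeq gene table of GRCm38.p6, with positions counted from 1. The assignment was tested on made-up intervals. The table gives no exons, so exon, intron and untranslated region were not separated. Strand came from the RefSeq promoter table, which held 2 of the 3 genes. No test was run, because the genes were chosen for their regions. The genes, gene lists and motifs were chosen with earlier results of these data known. Named were the 3 genes, their neighbours, list genes with a region, marker genes with a region, and for each gene the 3 most like it. Other genes (Rab31, Epb41l3, Dlgap1, Ncam2, Lrig1, Adamts1, the long genes compared by position, and list genes without a region) were added once their values had been seen. Alternatives were other distance limits, gene types, edges, subsets of regions and joining distances.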

Additional observations from a re-analysis of the deposited data

How the results depend on the processing

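No paired analysis was possible because single libraries have no values in the lists, and leaving one out was not possible either. MDM regions at Jam2, Magi1 and Ptprm numbered 0 also with a limit of 200 kb, with no limit and from region edges. These settings could not have added one, so the 0 under them is no support. The closest MDM region to Magi1 lay 321 kb away, at Slc25a26 and Lrig1. Those closest to Jam2 and Ptprm lay 3.32 and 3.22 Mb away, at Ncam2 and Dlgap1. The other alternatives could only remove regions. The counts of 5, 9 and 11 YSM regions were identical with limits of 50 kb, 200 kb or none, nearest gene bodies, all gene types and region edges. The distance limits could not change them and are no support. Every region lay inside its gene or within 0.234 kb of it, and the nearest YSM regions left out lay at other genes. With the nearest end within 100 kb alone, an alternative chosen after seeing the data that drops regions deep inside long genes, Ptprm had 7 and Magi1 7, the junction genes with an MDM region fell from 4 to 1, and the share of protein-coding genes with a YSM region was 1.82%. Restriction to scores above 1, which few regions have, left 0, 0 and 0 regions at the 3 genes, 1 junction gene with a YSM region and 0 with an MDM region, and 0.0777% of genes. Restriction to region names ending in 2 or more, a number of unstated meaning, left 2 regions at Jam2 and 1.73% of genes. The share of genes was 2.36% with no limit and 1.90% with all gene types, where regions go to more or to other genes by construction. With the wider of the 2 joining distances, the groups fell from 7 to 4 at Magi1 and from 10 to 6 at Ptprm. The limit of 200 kb, for genes with a strand, was chosen after seeing the data. Above it 32.4% of other YSM regions lay in the first 33.3% of the gene, against 20.9% over 500 kb. Read depth is unknown and limits every count in the lists to what passed the authors' threshold.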
